A study of Mus musculus with 12 samples.

Results

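NIH-3T3 mouse fibroblasts carrying the E157D form of PPARγ2 were compared with the same cells carrying the wild-type receptor, both without an added ligand. The comparison takes the 3 arrays of each receptor given the vehicle DMSO for 24 h, 6 of the 12 arrays of the series, and all probes detected at a detection p-value under 0.05 on at least 3 of the 12 arrays. That left 18921 of 45281 probes, and with 1 probe per gene 13006 features, 10082 of them under a gene symbol. The other 6 arrays come from the same cells given 20 µM rosiglitazone, a thiazolidinedione ligand of PPARγ, for 24 h. NIH-3T3 is an established fibroblast line. All 4 groups received a PPARγ2 transgene by lentivirus and grew in medium with blasticidin, so no group shows the cells without an introduced receptor. The labels name 3 independent experiments and do not say whether each receptor was introduced once or several times, so a difference between receptors and a difference between 2 infected cell populations cannot be told apart. The species of the transgene is not given.

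PPARγ is a nuclear receptor that binds DNA as a heterodimer with RXR at direct repeats of the motif AGGTCA, and PPARγ2 is the isoform typical of fat cells. In adipocytes it drives genes that take up, bind, store and burn fatty acids, and it has some activity without an added ligand. In E157D an aspartate stands in place of a glutamate in the DNA-binding domain. The series title names the transcriptional activity of this mutant as the question.

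Between 36.7% and 39.6% of probes were detected on each array, and the 6 DMSO arrays had 16894 to 17505 detected probes. Within a group the arrays correlated at 0.988 to 0.994 across features, and arrays of different receptors in DMSO at 0.983 to 0.990. The first principal component of the 6 DMSO arrays held 38.2% of the variance and the next 21%. All 11 measured fibroblast markers were detected in both groups. None of the 3 Pparg probes was detected on any of the 12 arrays (lowest detection p 0.12), so the amount of either receptor was not measured. Rxra, which encodes the DNA-binding partner, differed by -0.17 ± 0.19 on the log2 scale (SE, n = 3 arrays per group) and was not called (limma adjusted p = 0.828). Precision is limited by having 3 arrays in each group.

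Without ligand few features were called, which with 3 arrays per group does not show that the others were alike. With limma and a Benjamini-Hochberg adjusted p under 0.05, 146 of 13006 features were called, which is 1.12%, and 1425 had an unadjusted p under 0.05. Of the calls 91 (0.700% of features) were lower with E157D and 55 (0.423%) were higher. At least a 2-fold difference was seen for 44 of the lower and 22 of the higher features, and at least 4-fold for 12 and 7. The 3 arrays of one receptor did not overlap the 3 of the other for any called feature, against 2222 of all features (17.1%). Of the calls 115 have a gene symbol and 31 do not. When arrays were brought to a common median and not quantile-normalized, the median of all features moved from 0.01 to 0.12 on the log2 scale, and 80 features were called higher and 64 lower, 55.6% higher against 37.7%. The number of calls fell to 77 without E157D DMSO replicate 3, to 83 without E157D replicate 2, and to 88, 97 and 92 without wild-type replicates 1, 2 and 3. With a term for the replicate number added to the fit 233 features were called, 92 higher and 141 lower. The p-values measure the spread between these experiments.

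**Figure D1:**
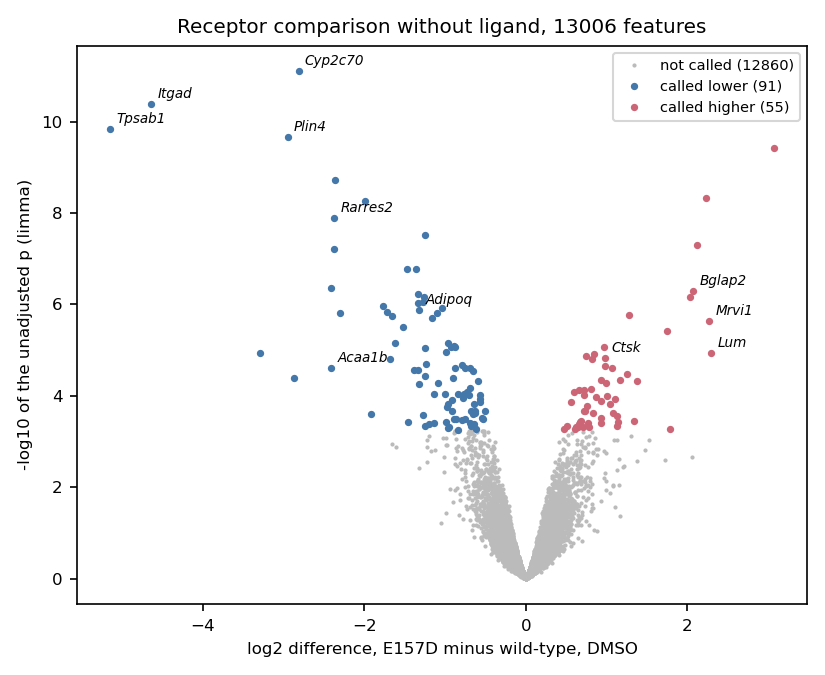
The log2 difference of E157D minus wild-type in DMSO (x axis) against the negative log10 of the unadjusted limma p (y axis) for 13006 features, with 91 called lower in blue, 55 called higher in red and the rest in grey. Tpsab1 and Itgad lie farthest to the left, and the higher side reaches 3.07 with an unnamed probe.

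Of the 30 gene lists, that of known PPAR targets, many of them genes of fat storage, had the most members called lower with E157D. Of 25 measured PPAR target genes 8 were called lower and 0 higher, beside a background of 0.700% of features called lower. The median log2 difference of the list was -0.33, against 0.01 over all features. Of its 25 members 20 were negative, against 48.5% of all features, and 18 when arrays were scaled to their median. The 8 were Plin4, Acaa1b, Aqp7, G0s2, Ephx2, Adipoq, Plin2 and Lpl. Aqp7 was detected on wild-type arrays only, and G0s2 on those and 1 E157D array, so both passed the detection filter through their high group. Among targets detected on all 12 arrays, 4 of 14 were called lower. Of 26 genes of lipid droplets and triglyceride metabolism 5 were called lower and 0 higher, with a median of -0.33, and leaving out 1 array gave 2 or 3. They were Plin4, G0s2, Fitm2, Plin2 and Lpl.

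Plin4, which encodes perilipin 4, a coat protein of lipid droplets, carried the largest difference of these genes. Its log2 intensity was 12.30, 12.33 and 12.34 on the 3 wild-type arrays and 9.51, 9.13 and 9.49 on the E157D arrays. The wild-type arrays were almost alike and lay far above the mutant ones. The fall was 7.72-fold, with a log2 difference of -2.95 ± 0.15 (adjusted p = 7.18e-07). Plin2, the droplet coat protein of most cell types, read 11.97, 11.56 and 11.77 against 10.97, 10.95 and 10.69. It fell by 0.89 on the log2 scale (SE 0.18, adjusted p = 0.0354), a smaller and less firm difference. Fitm2, an endoplasmic reticulum protein needed to form droplets, read 10.31, 10.24 and 9.96 with the wild-type receptor and 9.11, 9.12 and 9.31 with E157D, a log2 difference of -0.99 ± 0.14 (adjusted p = 0.00348).

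G0s2, an inhibitor of the lipase that opens fat breakdown, was present at a low level with the wild-type receptor (6.31, 6.31 and 6.44) and below detection on all E157D arrays (5.0, 4.96 and 4.71). It was at least 1.89-fold lower (adjusted p = 0.0391). Lpl, the secreted lipase that frees fatty acids from lipoproteins, was among the bright probes, at 12.84, 12.67 and 12.67 against 12.21, 12.10 and 12.11. The groups did not overlap, with a log2 difference of -0.59 ± 0.09 (adjusted p = 0.00913). Aqp7, the glycerol channel of fat cells, read 6.77, 5.91 and 6.29 with the wild-type receptor and lay below detection with E157D, at 4.58, 4.54 and 4.8. It was at least 1.86-fold lower (adjusted p = 0.0042). Adipoq, the gene of the fat-cell hormone adiponectin, showed the same arrangement, with 6.09, 6.03 and 6.46 against undetected values of 4.94, 4.79 and 4.90, at least 1.69-fold lower (adjusted p = 0.000733). For Aqp7 a further probe gave -1.52 ± 0.22 and was called, and another gave -0.33 ± 0.20 and was not.

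Both remaining targets encode enzymes. Acaa1b, a thiolase of the peroxisome, read 8.16, 7.42 and 7.67 with wild-type and 5.40, 5.58 and 5.06 with E157D, where 1 of 3 arrays detected it. The log2 difference was -2.41 ± 0.36 (adjusted p = 0.00574). Ephx2, the soluble epoxide hydrolase that breaks down fatty acid epoxides, read 8.87, 8.90 and 8.75 against 7.36, 7.56 and 7.53. It fell by 1.36 on the log2 scale (SE 0.13, adjusted p = 0.000156). Ephx2 is a member of the list outside the rule that chose the named genes.

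The uncalled members of both lists spread on either side of 0. Of those looked up after their values were seen, Dgat2, which makes triglyceride from diglyceride, differed by -1.13 ± 0.28 (adjusted p = 0.0843), and Pnpla2, the lipase that starts fat breakdown, by -0.62 ± 0.14 (adjusted p = 0.065). Angptl4, a secreted inhibitor of Lpl and a sensitive PPAR target, read 13.12, 13.08 and 12.82 with wild-type and 12.79, 12.66 and 12.33 with E157D, a difference of -0.42 ± 0.14 that was not called (adjusted p = 0.245). Pdk4, a kinase that shuts down pyruvate oxidation, differed by 0.03 ± 0.14 (adjusted p = 0.978) and its arrays overlapped. The targets Fabp4, Cidec and Fgf21 were below detection on all 6 DMSO arrays, and Cd36 on all 12, so they carry no comparison here. Of the 8 targets, G0s2 and Plin2 lost their calls when any 1 of the 6 arrays was left out (adjusted p 0.083 to 0.169 for G0s2 and 0.0503 to 0.169 for Plin2). Lpl lost it without E157D replicate 2 or 3 (0.0505 and 0.0564) and with median scaling (0.13), and leaving out 1 array gave 5 or 6 called targets.

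**Figure D2:**
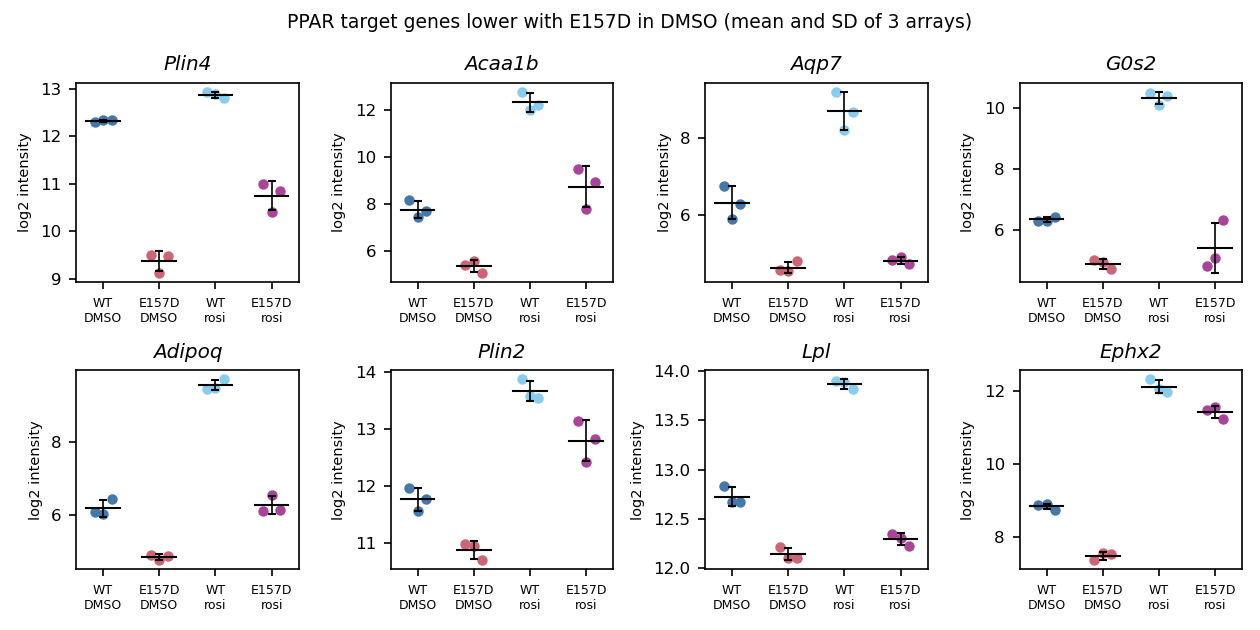
Log2 intensity (y axis) of the 8 called PPAR target genes in the 4 groups (x axis, 3 arrays each); points are arrays, the long bar is the mean and the error bars are the SD. For each gene the 3 wild-type DMSO arrays lie above the 3 E157D DMSO arrays, by -2.95 for Plin4 to -0.59 for Lpl on the log2 scale.

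A look at the promoters was limited to 300 bases, 250 before and 50 after the RefSeq transcription start (GRCm38.p6). Promoters were found for 59 of the lower and 34 of the higher called genes. The full direct repeat, AGGTCA followed by any 1 base and AGGTCA again, searched on both strands, was in 0 of the 59 and 0 of the 34, and in 0.0243% of 8226 tested genes with a promoter. The single motif AGGTCA, which any full repeat also contains, was in 12 of the 59 (20.3%) and 6 of the 34 (17.6%), against 14.4% of tested genes and 18.1% of all 27025 genes. Both shares lie above the 14.4% of tested genes, from which the calls come, and close to that of all genes. These differences were not tested. The promoters of Plin2 (chr4:86670010-86670309, minus strand) and Aqp7 (chr4:41047913-41048212, minus strand, 1 of its start sites) are shown as the 2 lipid genes with the motif, whose reverse complement is in capitals, 5′ to 3′ along the gene.
Plin2: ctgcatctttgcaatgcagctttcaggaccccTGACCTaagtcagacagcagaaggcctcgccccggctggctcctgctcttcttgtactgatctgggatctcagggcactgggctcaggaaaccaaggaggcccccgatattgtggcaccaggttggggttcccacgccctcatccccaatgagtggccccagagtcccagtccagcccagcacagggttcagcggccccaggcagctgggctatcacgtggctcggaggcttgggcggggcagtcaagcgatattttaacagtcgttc
Aqp7: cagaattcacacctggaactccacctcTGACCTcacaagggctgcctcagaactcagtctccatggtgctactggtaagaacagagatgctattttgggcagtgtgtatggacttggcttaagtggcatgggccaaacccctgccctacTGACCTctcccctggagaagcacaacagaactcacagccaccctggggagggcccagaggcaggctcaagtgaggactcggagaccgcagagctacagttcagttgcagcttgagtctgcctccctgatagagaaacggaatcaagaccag
Counted from the transcription start, the motif begins at -218 in Plin2 and at -223 and -101 in Aqp7. A match is a description of these letters and not evidence of binding.

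Fatty acid oxidation, which PPARs also control, gave no call. Of 26 measured genes of mitochondrial and peroxisomal oxidation 0 were called by limma, and 8 had an unadjusted p under 0.05, all lower, against 716 lower among all 13006 features. Without background correction and with the authors' values 4 of the 26 were called lower. Their median was -0.16, with 24 of 26 negative, against 48.5% of all features. Scaling arrays to the median left 16 of 26 negative with a median of -0.05. Pex11a, which divides peroxisomes, read 9.67, 9.15 and 9.36 with wild-type and 8.67, 8.53 and 8.39 with E157D, a difference of -0.86 ± 0.19 that missed the threshold (adjusted p = 0.0635) and passed it under 7 alternatives (lowest 0.00717). Etfdh, which passes electrons from fatty acid oxidation to ubiquinone, differed by -0.40 ± 0.10 (adjusted p = 0.102). In the respiratory chain 0 of 28 genes were called and 2 had an unadjusted p under 0.05, both lower. Called genes of neighbouring metabolism, chosen after their values were seen, were Pcx, the enzyme that feeds oxaloacetate to the citric acid cycle, at -1.27 ± 0.14 (adjusted p = 0.000572), the cytosolic dehydrogenase Idh1 at -0.73 ± 0.12 (0.0144), the citrate carrier Slc25a1 at -0.51 ± 0.10 (0.0273) and Ass1, which makes argininosuccinate, at -1.24 ± 0.18 (0.00538). Idh1 and Slc25a1 lost their calls with median scaling (0.0858 and 0.29). Pmvk, a kinase of cholesterol synthesis, fell by 0.57 on the log2 scale (SE 0.10, adjusted p = 0.0149). It was the 1 called gene of 23 in cholesterol and fatty acid synthesis, beside 0.700% of all features called lower. Its call also ended with median scaling (0.293).

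Tpsab1 and Itgad, the genes with the largest falls, are known from leukocytes and not from fat. Tpsab1, a tryptase of mast cell granules, read 10.38, 9.89 and 10.17 with the wild-type receptor and was below detection on all E157D arrays (4.68, 5.10 and 5.24). It was at least 26.3-fold lower (adjusted p = 6.4e-07). Itgad, the integrin αD subunit of leukocytes, read 10.68, 10.19 and 10.44 against 5.84, 5.46 and 6.10 and was still detected on all 3 E157D arrays. Its fall was 24.9-fold, a log2 difference of -4.64 ± 0.21 (adjusted p = 2.66e-07). The size depended on the probe, since 3 further Itgad probes gave -5.41, -1.79 and -0.96, all called. Prg2, the major basic protein of eosinophils, was low with wild-type (6.64, 6.54 and 6.22) and undetected with E157D (5.36, 5.12 and 4.78), at least 2.05-fold lower (adjusted p = 0.00609).

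Of 17 leukocyte markers listed 6 were measured, and the 3 just described were called lower, beside 0.700% of all features called lower. The list was chosen with earlier results of these data known, so this count is no support for a class of genes. Cd14, Lyz2 and Coro1a were not called, with differences of -0.38, -0.13 and 0.02 on the log2 scale. The summed level of the 6 was 2531 to 3392 on the wild-type DMSO arrays and 357 to 449 on the E157D arrays, so the groups did not overlap. Tpsab1 and Itgad made up most of the wild-type sum, which thus restates their falls and does not speak for the other markers. The defining markers Ptprc, Adgre1, Itgam, Cd3e, Tyrobp and Cpa3 were below detection on the DMSO arrays of both receptors. The summed level of the 11 fibroblast markers was 67648 to 75162 with wild-type and 83877 to 88622 with E157D. Tpsab1 and related tryptase genes are similar in sequence, so the probe may read more than 1 of them.

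Trem2, a lipid-sensing receptor of macrophages and osteoclasts, was bright with both receptors, at 10.66, 10.70 and 10.84 against 9.21, 9.30 and 9.29. It fell by 1.47 on the log2 scale (SE 0.14, adjusted p = 0.000156). Its neighbour on chromosome 17, Treml1, a receptor known from platelets and chosen after its values were seen, read 8.04, 7.98 and 8.0 with wild-type and 6.78, 6.62 and 6.86 with E157D, a log2 difference of -1.25 ± 0.10 (adjusted p = 4e-05). Both neighbours thus lay lower on every E157D array.

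Several secreted and acute phase genes were lower. Lcn2, the iron-siderophore carrier lipocalin 2, read 7.98, 7.55 and 7.98 with wild-type and 6.0, 5.17 and 5.10 with E157D, where 1 array detected it. The log2 difference was -2.41 ± 0.24 (adjusted p = 0.000382). Rarres2, which encodes the adipokine and chemoattractant chemerin, read 8.94, 8.77 and 9.13 against 6.78, 6.26 and 6.68, and fell 5.18-fold (log2 SE 0.17, adjusted p = 1.83e-05). A further Rarres2 probe gave -2.37 ± 0.18 and another 0.03 ± 0.23, so 1 of the 3 probes did not show the fall. Hp, the haemoglobin scavenger haptoglobin, read 8.80, 8.57 and 8.20 with wild-type and spread from 6.0 to 7.44 with E157D, a difference of -1.91 ± 0.37 (adjusted p = 0.0302).

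Ccl9, a chemokine of the macrophage inflammatory protein family, read 11.22, 10.44 and 10.76 against 9.86, 9.74 and 9.21 and fell by 1.20 on the log2 scale (SE 0.25, adjusted p = 0.0406). Lcn2, Hp and Ccl9 were the called genes among 24 measured chemokines and inflammatory genes, where 0 were called higher, beside 0.700% of all features called lower. The median of that list was -0.18, and leaving out 1 array gave 1 or 2 calls. Hp lost its call without 5 of the 6 arrays in turn, all but E157D replicate 1 (adjusted p 0.0555 to 0.138), and Ccl9 without all but wild-type replicate 2 (0.0549 to 0.182).

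Serpina3n, a secreted protease inhibitor and acute phase protein, was bright on all arrays, at 13.26, 13.63 and 13.28 with wild-type and 12.31, 12.34 and 12.23 with E157D. Its log2 difference was -1.10 ± 0.13 (adjusted p = 0.000758). It was the 1 called gene among 20 matrix proteases and inhibitors, beside 0.700% of all features called lower. Of the 20, 14 were positive (list median 0.09), against 51.5% of all features. Serpinb9f and Serpinb9g, intracellular serpins of a mouse gene cluster, were undetected on all E157D arrays. Serpinb9f read 8.93, 7.60 and 7.94 with wild-type and 5.06, 4.74 and 4.8 with E157D, at least 6.6-fold lower (adjusted p = 0.00356), and Serpinb9g was at least 5.84-fold lower (0.00846). These 2 genes are near-identical copies, so their probes may read the same transcripts.

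Other large falls belonged to no single list. Cyp2c70, a cytochrome P450 that in mouse liver makes muricholic acids, read 9.22, 9.05 and 8.91 against 6.19, 6.33 and 6.23, with the smallest adjusted p of the comparison (1.01e-07) and a log2 difference of -2.81 ± 0.11. Chst1, a sulfotransferase of carbohydrate chains, fell by 2.37 on the log2 scale (SE 0.15, adjusted p = 4.16e-06) from 8.57, 8.23 and 8.15 to 5.92, 6.10 and 5.83. Mycl, a member of the MYC family of transcription factors, was at least 3.7-fold lower and undetected with E157D (adjusted p = 6.74e-05). Dmkn, the secreted skin protein dermokine, was at least 2.33-fold lower (0.000633), although 1 of its 2 further probes had a positive sign (0.40 ± 0.26, not called). Fam183b was at least 1.8-fold lower (0.00261), with all E157D arrays between 4.61 and 4.69 and undetected.

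S100a1, a calcium-binding protein known from muscle and chosen after its values were seen, differed by -1.33 ± 0.14 (adjusted p = 0.000572). Nrp1, a co-receptor of semaphorins and VEGF, fell by 0.84 on the log2 scale (SE 0.14, adjusted p = 0.0149). Its list of integrins, cadherins and guidance molecules had 24 of 37 members positive, against 51.5% of all features. The call of Nrp1 was lost without wild-type replicate 1 or E157D replicates 2 or 3 (0.0619 to 0.081). Krt14, a keratin of basal epithelium, was detected on 2 wild-type DMSO arrays and no E157D array, and was at least 1.12-fold lower (0.0273). It passed the detection filter only through wild-type arrays. It was the 1 called gene of 4 measured epithelial and endothelial markers, beside 0.700% of all features called lower. That call was lost without 5 of the 6 arrays in turn, all but wild-type replicate 1 (0.0633 to 0.108).

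**Figure D3:**
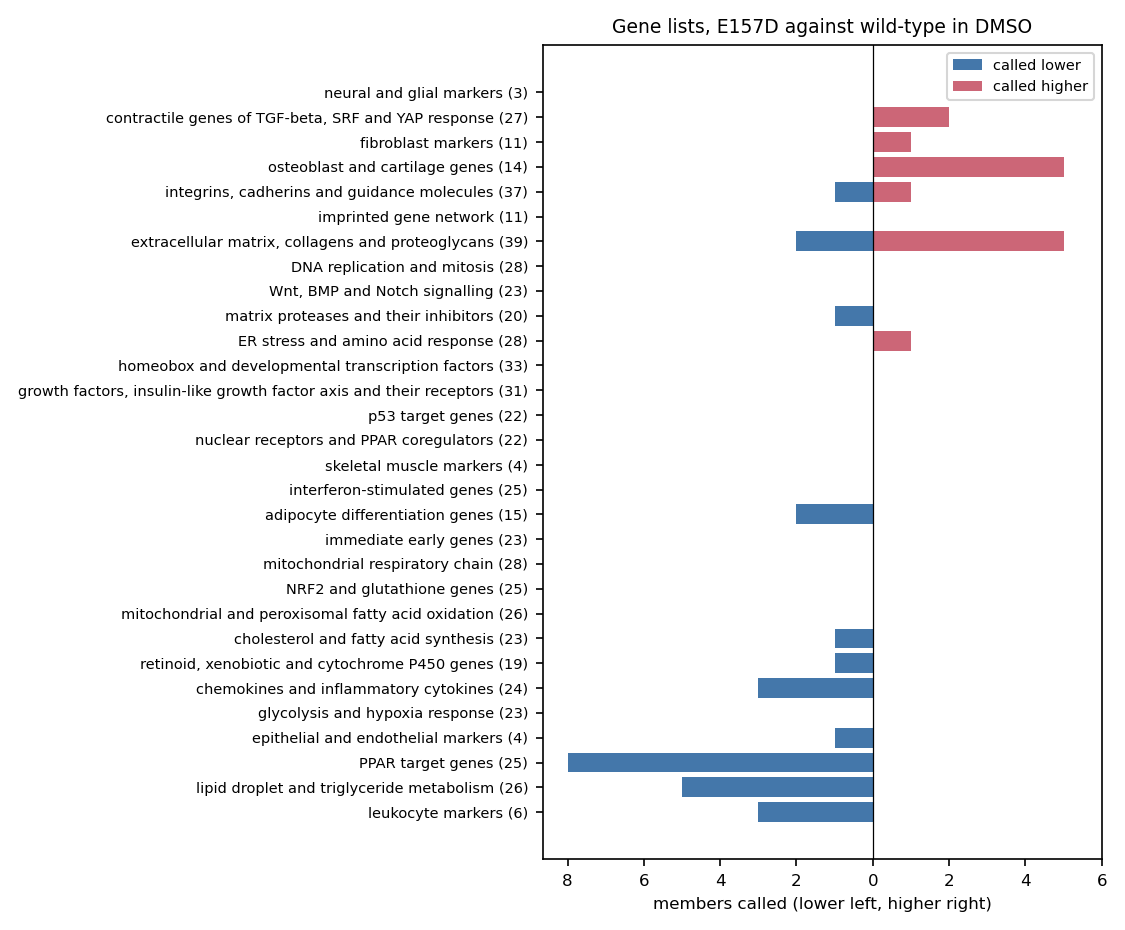
Number of measured members called lower (bars to the left) and higher (bars to the right) with E157D in DMSO for each of the 30 gene lists, ordered by their median log2 difference, with the number measured in brackets. The 8 lower PPAR target genes and the 5 higher genes each of the matrix and bone lists stand out, and 15 lists have no bar.

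Among the rises, genes of the extracellular matrix and of bone were the most numerous in the lists. Of 39 measured matrix genes 5 were called higher (Lum, Ogn, Cemip, Omd and Tnc) and 2 lower (Col18a1 and Nid1), beside a background of 0.423% higher and 0.700% lower. The list median was 0.12, and leaving out 1 array gave 1 to 4 members called higher. Of 14 osteoblast and cartilage genes 5 were called higher (Bglap2, Mgp, Ogn, Omd and Bglap) and 0 lower, with a median of 0.31, and 3 or 4 were called when 1 array was left out. Ogn and Omd belong to both lists, and Tnc, Nid1 and Bglap were named after their values were seen. Omd passed the detection filter only through the E157D DMSO arrays, so both counts include a gene kept for its high group. Bglap, in the bone list, was likewise detected on E157D arrays only. Among genes detected on all 12 arrays, 5 of 32 matrix genes and 2 of 5 bone genes were called higher.

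Lum, a leucine-rich proteoglycan that spaces collagen fibrils, read 7.49, 8.17 and 8.23 with the wild-type receptor and 9.87, 10.52 and 10.38 with E157D. The rise was 4.89-fold, a log2 difference of 2.29 ± 0.32 (adjusted p = 0.00356), and a further probe of the gene gave 2.17 ± 0.41. Ogn, osteoglycin, and Omd, osteomodulin, are proteoglycans of the same family whose genes are neighbours on chromosome 13. Ogn read 8.44, 9.09 and 8.60 against 10.14, 10.91 and 10.42, a difference of 1.78 ± 0.38 with an adjusted p of 0.0477. A further Ogn probe gave 0.53 ± 0.20 and was not called. Omd was undetected with the wild-type receptor and at 5.96, 5.61 and 5.61 with E157D, at least 1.21-fold higher (0.0129). No array outside that E157D group detected it, so Omd passed the detection filter only through the group where it was high.

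Cemip, which takes part in breaking down hyaluronan, read 10.06, 9.69 and 9.65 against 10.74, 11.70 and 10.97 and rose by 1.33 ± 0.27 (adjusted p = 0.0381). Its relative Cemip2 rose by 0.96 ± 0.13 (0.00287), from 8.66, 9.05 and 9.01 to 9.77, 9.86 and 9.96. Tnc, the matrix protein tenascin C of wounds and tendons, rose by 0.65 ± 0.14 (0.0412). Both lower matrix genes belong to basement membranes. Col18a1, whose end fragment is endostatin, read 10.07, 9.76 and 9.79 with wild-type and 7.94, 7.74 and 7.99 with E157D, a 3.96-fold fall (log2 SE 0.14, adjusted p = 9.04e-06), and Nid1, nidogen 1, fell by 0.98 on the log2 scale (SE 0.18, 0.0232). A further Col18a1 probe gave -0.22 ± 0.23 and was not called, so that probe did not show the fall. The fibrillar collagen Col1a1 differed by 0.45 ± 0.17 and was not called (0.338). Ogn and Tnc lost their calls when any 1 array was left out (0.0684 to 0.201 and 0.0783 to 0.18). Cemip and Nid1 lost theirs on leaving out any array but E157D replicate 1 (0.063 to 0.135 and 0.0523 to 0.11). Omd lost its call without wild-type replicate 3 (0.0527) and with the authors' processed values (0.126). Its call also ended without background correction, with a mean-variance trend and in a fit to the 6 DMSO arrays alone.

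Of the bone genes, Mgp, the matrix Gla protein that prevents calcification, read 8.30, 8.72 and 9.18 with wild-type and 10.58, 10.72 and 11 with E157D. It rose 4.07-fold (log2 SE 0.21, adjusted p = 0.000478). Bglap2, an osteocalcin gene, read 5.96, 5.0 and 5.83 against 7.66, 7.61 and 7.73 and rose by 2.07 ± 0.21 (0.000417), while Bglap, the neighbouring osteocalcin gene on chromosome 3, was called higher (0.0144) although only 1 of the 3 E157D arrays and no wild-type array detected it. These 2 genes are near-identical copies, so the split of signal between them is uncertain, and the call of Bglap ended without 4 of the arrays in turn (wild-type replicates 1 and 2, E157D replicates 1 and 3, 0.0569 to 0.066) and with median scaling. Ctsk, cathepsin K, a collagen-cleaving protease of osteoclasts and fibroblasts, rose by 0.98 ± 0.14 (0.00417), from 8.63, 8.71 and 9.03 to 9.68, 9.91 and 9.73.

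**Figure D4:**
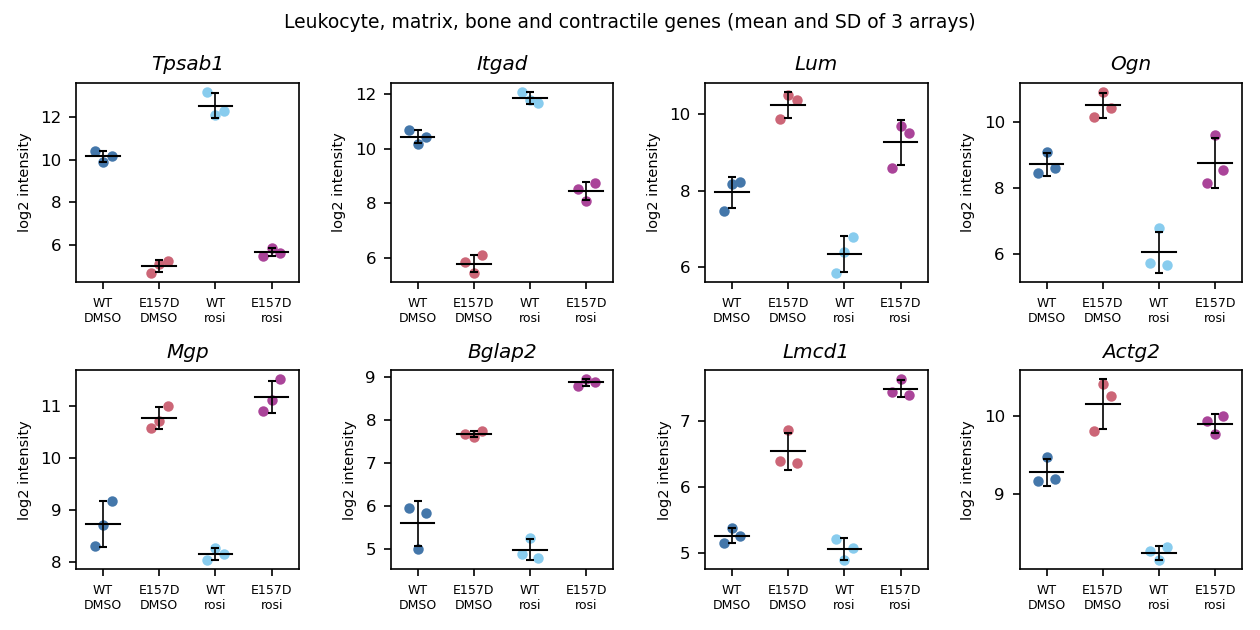
Log2 intensity (y axis) of 2 leukocyte genes and of 6 matrix, bone and contractile genes in the 4 groups (x axis, 3 arrays each); points are arrays, the long bar is the mean and the error bars are the SD. Tpsab1 and Itgad are lower on every E157D DMSO array and the other 6 genes are higher on every E157D DMSO array than on any wild-type DMSO array.

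Of 27 measured contractile genes of the TGF-β, SRF and YAP response 2 were called higher and 0 lower, beside 0.423% of all features called higher. An unadjusted p under 0.05 was seen for 12 of the 27, all higher, against 709 higher among all 13006 features. The list median was 0.35, and leaving out 1 array gave 0 to 3 called members. Actg2, smooth muscle γ-actin, read 9.16, 9.47 and 9.20 with wild-type and 9.80, 10.40 and 10.25 with E157D and rose by 0.87 ± 0.15 (adjusted p = 0.0161). Lmod1, a leiomodin that nucleates actin filaments in smooth muscle, was undetected with wild-type and at 5.82, 6.05 and 6.34 with E157D, at least 1.53-fold higher (0.0455). Ccn2, connective tissue growth factor, differed by 0.54 ± 0.19 and was not called (0.271).

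Lmcd1, a LIM-domain cofactor of muscle, was undetected with wild-type (5.15, 5.37 and 5.27) and at 6.40, 6.87 and 6.37 with E157D, at least 2.13-fold higher (0.00078). Fhl1, a LIM protein of muscle, rose by 1.13 ± 0.22 (0.0325), and its relative Fhl2 by 0.62 ± 0.13 (0.0454). Rnd3, a small GTPase that loosens actin stress fibres, rose by 0.98 ± 0.15 (0.00574), from 6.74, 7.21 and 7.12 to 7.79, 8.14 and 8.07. Mylk, myosin light chain kinase, rose by 0.93 ± 0.19 (0.0405), the myosin heavy chain Myh10 by 0.72 ± 0.12 (0.0133) and the transcription factor Mef2c by 0.65 ± 0.11 (0.0132). Fhl2, Mylk, Myh10 and Mef2c were chosen after their values were seen. Leaving out single arrays ended the calls of Actg2 (wild-type replicates 1 and 3, E157D replicates 2 and 3, 0.0695 to 0.0918), Fhl1 (wild-type 1 and 2, E157D 2 and 3, 0.0864 to 0.125), Myh10 (the same arrays as Fhl1, 0.0505 to 0.0759), Mef2c (the same as Actg2, 0.0523 to 0.0685), Lmod1 and Mylk (all but E157D 1, 0.0877 to 0.194 and 0.067 to 0.18) and Fhl2 (all but wild-type 1, 0.0778 to 0.2). The call of Rnd3 was lost in a fit to the 6 DMSO arrays alone (0.0503). Of 2 further Lmcd1 probes 1 gave 1.11 ± 0.20 and was called, and the other 0.01 ± 0.18 and was not (0.995).

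The CArG box, the motif bound by serum response factor, was searched by name in the same 300-base promoters on both strands. It was in 4 of the 34 higher genes with a promoter (11.8%) and in 0 of the 59 lower ones, against 1.67% of tested genes and 1.81% of all genes. The 4 were Lmcd1, Fhl1, Fhl2 and Rnd3, and the search was made after their values were seen. Their promoters are shown because these genes rose together, with the box in capitals, 5′ to 3′ along the gene, in GRCm38.p6: Lmcd1 at chr6:112273508-112273807 (plus strand), Fhl1 at chrX:56779433-56779732 (plus), Fhl2 at chr1:43163912-43164211 (minus, 1 of its start sites) and Rnd3 at chr2:51149062-51149361 (minus).
Lmcd1: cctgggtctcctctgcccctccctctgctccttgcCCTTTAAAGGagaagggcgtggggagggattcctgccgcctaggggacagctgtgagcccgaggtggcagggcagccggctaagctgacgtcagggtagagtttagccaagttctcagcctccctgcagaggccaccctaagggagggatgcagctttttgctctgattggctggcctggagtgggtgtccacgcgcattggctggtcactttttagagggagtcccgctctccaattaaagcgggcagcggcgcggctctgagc
Fhl1: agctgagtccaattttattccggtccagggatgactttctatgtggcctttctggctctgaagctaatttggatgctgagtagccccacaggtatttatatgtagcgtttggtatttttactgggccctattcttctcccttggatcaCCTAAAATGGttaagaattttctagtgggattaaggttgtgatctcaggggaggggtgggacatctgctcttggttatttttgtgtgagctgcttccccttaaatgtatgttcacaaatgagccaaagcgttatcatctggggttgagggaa
Fhl2: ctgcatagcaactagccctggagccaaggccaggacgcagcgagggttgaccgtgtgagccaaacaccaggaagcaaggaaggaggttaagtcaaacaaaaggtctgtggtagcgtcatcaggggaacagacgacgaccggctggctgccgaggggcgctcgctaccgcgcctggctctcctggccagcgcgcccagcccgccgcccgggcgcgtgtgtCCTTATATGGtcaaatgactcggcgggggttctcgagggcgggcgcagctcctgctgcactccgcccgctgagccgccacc
Rnd3: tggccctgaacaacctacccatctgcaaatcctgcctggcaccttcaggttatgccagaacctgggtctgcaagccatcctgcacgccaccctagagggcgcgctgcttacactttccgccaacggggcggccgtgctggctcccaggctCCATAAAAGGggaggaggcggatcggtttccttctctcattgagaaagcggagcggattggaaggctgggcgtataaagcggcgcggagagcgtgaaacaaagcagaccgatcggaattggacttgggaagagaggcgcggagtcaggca
Counted from the transcription start, the boxes begin at -215, -102, -31 and -100 in this order. A match does not show that the factor binds there, and no measure of binding was made.

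Further rises were scattered over signalling and membrane genes. Mrvi1, a target of cGMP kinase in smooth muscle, read 5.49, 5.75 and 6.5 against 7.67, 8.56 and 8.31 and rose by 2.27 ± 0.27 (adjusted p = 0.000972), but a further probe of it gave -0.28 ± 0.15 and was not called. Sncg, γ-synuclein, known from neurons and fat cells, rose 3.35-fold (log2 SE 0.22, 0.00147), from 8.40, 7.78 and 7.99 to 10.27, 9.33 and 9.80. Ramp2, the receptor partner that makes calcitonin receptor-like receptor respond to adrenomedullin, rose by 1.38 ± 0.22 (0.00916), and Lrrc8d, a subunit of volume-regulated anion channels, by 1.26 ± 0.19 (0.00718). Without E157D replicate 2 or 3 the call of Ramp2 was lost (0.0505 and 0.0547). That of Lrrc8d was lost in a fit to the 6 DMSO arrays alone (0.0583).

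P2ry14, a receptor of UDP-glucose, rose by 1.16 ± 0.19 (0.00899) and Itgb5, the integrin β5 subunit, by 0.76 ± 0.14 (0.023). A further P2ry14 probe gave 0.62 ± 0.22 and was not called. Vldlr, a lipoprotein receptor, rose by 0.67 ± 0.14 (0.0391). It was the 1 called gene of 28 in the list of ER stress and amino acid response, beside 0.423% of all features called higher. Pla2g7, the platelet-activating factor acetylhydrolase, was at least 1.62-fold higher (0.0156) and Amy2a5, one of several near-identical pancreatic amylase genes, at least 1.57-fold (0.00574). Both were undetected on all wild-type DMSO arrays. Myzap, a protein of cell junctions in heart, rose by 1.08 ± 0.21 (0.0293), and a further probe of it gave 0.28 ± 0.20 and was not called. The calls of Myzap and Pla2g7 ended without background correction and with the authors' values. In a fit to the 6 DMSO arrays alone the calls of P2ry14 (0.0692) and Amy2a5 (0.0551) ended, as did those of Itgb5, Vldlr and Myzap. Leaving out 1 array ended the calls of Vldlr (any array, 0.0821 to 0.169), Itgb5 (all but wild-type replicate 3, 0.0679 to 0.104), Myzap (wild-type 1 and 2, E157D 2 and 3, 0.101 to 0.133) and Pla2g7 (wild-type 1 and 3, E157D 1 and 3, 0.0618 to 0.066).

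In 15 of the 30 lists no member was called by limma. These held 327 list entries, of which 62 had an unadjusted p under 0.05, against 1425 of all 13006 features. Some of these lists gained calls under alternatives: with the authors' values 3 NRF2 and glutathione genes were called lower and 2 imprinted genes higher. They include interferon-stimulated genes, glutathione genes of the NRF2 response, glycolysis, Wnt signalling, growth factors, imprinted genes, homeobox genes, DNA replication, p53 targets and early response genes. Close to the threshold lay Egln3, an oxygen-sensing hydroxylase, at -0.51 ± 0.11 (adjusted p = 0.0509), Mgst1, a membrane glutathione transferase, at -0.72 ± 0.16 (0.0606), and the receptor gene Egfr at 0.73 ± 0.17 (0.08). Igfbp5, which binds insulin-like growth factors, differed by 1.13 ± 0.26 (0.0651). Igf2, the imprinted fetal growth factor, read 10.57, 11.70 and 11.65 with wild-type and 12.51, 13.48 and 13.10 with E157D. Its arrays did not overlap, the difference of 1.72 ± 0.45 was not called (0.117), and replicate 1 was the lowest array of each group. It was called under 5 of 17 alternatives, among them median scaling (0.0381), the authors' values (0.0275) and a fit with a term for the replicate number. In DNA replication 23 of 28 genes were positive, against 51.5% of all features, with a highest log2 difference of 0.32.

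At 81 of 13006 features detection in DMSO was complete with either receptor and absent with the other. Of these, 38 were detected on all 3 wild-type arrays and no E157D array, 20 of them called lower. The other 43 were detected on all 3 E157D arrays and no wild-type array, 9 of them called higher. Such features pass the detection filter through their detected group alone, and no count expected by chance was computed. For those not called, a detection p on either side of 0.05 does not show a difference in level. Tpsab1, Serpinb9f, Serpinb9g, Mycl, Dmkn, Aqp7, Fam183b, G0s2, Prg2 and Adipoq belong to the first set and Lmcd1, Amy2a5, Pla2g7, Omd and Lmod1 to the other. A further 117 tested features were below detection on all 6 DMSO arrays.

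Cells given rosiglitazone offer the same receptor comparison on arrays that share no sample with the DMSO arrays. There 2571 features (19.8%) were called, 1367 higher with E157D (10.5%) and 1204 lower (9.26%). Of the 146 features called in DMSO, 123 were called in the same direction with rosiglitazone, 48 higher and 75 lower, which is 84.2% of the DMSO calls and 4.78% of the rosiglitazone calls. The sign agreed for 141 of the 146 (96.6%), against 64% of all features. The fitted absolute difference was larger with rosiglitazone for 94 of the 146. In DMSO 22 of the lower calls were undetected on all E157D arrays, and 11 of the higher calls on all wild-type arrays. Their DMSO differences are lower bounds, so for them this ranking is not known. All 4 groups entered the same fit, so the 2 comparisons share an estimate of the spread.

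The size of the receptor difference itself differed between rosiglitazone and DMSO for 42 of the 146 and for 310 of all features (2.38%). For 35 of the 42 the fitted difference was larger with rosiglitazone in the same direction, counted also where a group was undetected in DMSO. G0s2 is one of the 35 by its fitted values only. With rosiglitazone its wild-type arrays read 10.52, 10.13 and 10.41 and its E157D arrays 4.82, 5.07 and 6.33. The fitted log2 difference was -4.94 ± 0.30 (adjusted p of the change = 0.00127). Adipoq reached 9.43, 9.46 and 9.69 with wild-type and 6.13, 6.55 and 6.14 with E157D, a difference of -3.26 ± 0.15 (adjusted p of the change = 0.000505). Lpl moved from -0.59 to -1.58 (0.00273). Since G0s2, Adipoq and Aqp7 were undetected with E157D in DMSO, their differences there are lower bounds (at least 1.89-fold, 1.69-fold and 1.86-fold), and the size of their change between treatments cannot be read from the fitted values.

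Plin4 went the other way in size, and the change was not called. Its difference was -2.13 ± 0.15 with rosiglitazone, where wild-type arrays read 12.92, 12.90 and 12.80 and E157D arrays 10.99, 10.40 and 10.84 (adjusted p of the change = 0.074). Plin2 differed by -0.88 ± 0.18 with the drug and -0.89 without it. Cyp2c70 and Itgad had smaller differences with rosiglitazone (-2.02 and -3.39) than in DMSO, and these changes were called (0.0205 and 0.0471).

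Among the higher genes, Bglap2 went from 2.07 in DMSO to 3.88 with rosiglitazone (adjusted p of the change = 0.00928), Sncg from 1.75 to 3.54 (0.0112), and Ramp2 from 1.38 to 2.71 (0.049). Bglap2 was undetected on all wild-type rosiglitazone arrays, where it was at least 10.2-fold higher with E157D. Lmcd1, undetected with wild-type under both treatments, was at least 2.13-fold higher with E157D in DMSO and at least 3.97-fold higher with rosiglitazone, so the size of its change is not known. Lum, at 2.29 and 2.92, and Mgp, at 2.03 and 3.02, showed no called change (0.554 and 0.119). With rosiglitazone Lum read 5.86, 6.40 and 6.78 with wild-type and 8.60, 9.70 and 9.50 with E157D. Mgp with E157D read 10.90, 11.11 and 11.52.

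At 3 features the call turned around. Prg2 was lower with E157D in DMSO and higher with rosiglitazone, where wild-type arrays read 7.42, 6.98 and 6.84 and E157D arrays 8.46, 8.08 and 7.81, a difference of 1.04 ± 0.21 (adjusted p = 0.00485). Ccl9 did the same, at 10.34, 10.19 and 10.24 with wild-type and 11.72, 11.10 and 10.82 with E157D, a difference of 0.96 ± 0.25 (0.018). The third was an unnamed probe, ILMN_2711948, higher by 0.51 in DMSO and different by -0.44 with rosiglitazone. A further 20 features were called in DMSO and not with rosiglitazone. Omd is one of them, undetected on all 6 rosiglitazone arrays, so that it carries no comparison there. Neu3, a sialidase of the plasma membrane, and Tpd52l1, both chosen after their values were seen, were undetected with wild-type in DMSO and at least 1.5-fold and 1.24-fold higher with E157D (adjusted p = 0.019 and 0.00393), while with rosiglitazone the differences were -0.16 and 0.03 and were not called. Neu3 lost its DMSO call without wild-type replicates 1 or 3 or E157D replicates 1 or 3 (0.0501 to 0.0904) and under 3 further settings (up to 0.0948), and Tpd52l1 without background correction, with the authors' values and with a mean-variance trend (0.13, 0.152 and 0.063).

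**Figure D5:**
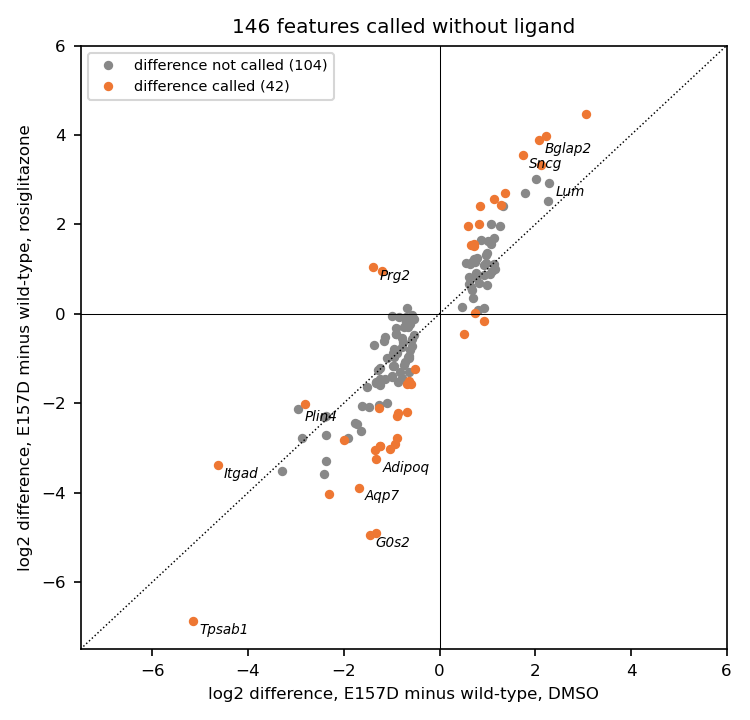
Log2 difference of E157D minus wild-type in DMSO (x axis) against the same difference with rosiglitazone (y axis) for the 146 features called in DMSO; orange points are the 42 whose difference changed between treatments at an adjusted p under 0.05, grey the rest, and the dotted line marks equal differences. Most points lie in the same-sign corners, 141 of 146, and Prg2 is in the upper left.

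For 41 called genes the array held 60 further kept probes. Of these 54 had the sign of the main probe, 20 of them called, and 6 had the opposite sign, 0 of them called. The 31 unnamed calls include the largest rise of all. Probe ILMN_1220829 read 4.87, 5.16 and 5.52 with wild-type, where 1 array detected it, and 8.54, 8.06 and 8.16 with E157D, a difference of 3.07 ± 0.17 (adjusted p = 9.97e-07). Probe ILMN_1233122 was at least 3.55-fold higher. The unnamed probes with large falls included ILMN_2835423, at -2.30 ± 0.26, and ILMN_2522884, at -1.72 ± 0.19.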

How the data were processed

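RNA of NIH-3T3 cultures was read on 1-colour bead arrays, per the labels. Per the file headers, the deposited table holds for every probe an intensity and the detection p-value of each array, before any normalization. A table of intensity values processed by the authors, by a method not stated, was an alternative. With neqc (limma 3.58.1, R 4.3.3) the background was modelled from negative controls that the detection p-values imply, 16 was added and quantile normalization preceded the log2 step, so a change common to all genes would not show. Gene symbols came from the platform annotation (34885 probes have 1, 18 several and 10378 none), and 34807 matched RefSeq. Each gene took its kept probe of highest mean. Group means of all 12 arrays were fitted with lmFit and eBayes (8 residual and 3.9 prior degrees of freedom), and a Benjamini-Hochberg adjusted p under 0.05 over all features made a call. Errors are limma standard errors. An "at least" fold sets the detected group against a floor, on each array the lowest detected signal or the undetected probe's own where that is higher. Summed marker levels are sums of linear normalized intensities.

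Genes were named as the 18 largest rises and falls among called genes without overlap, up to 4 called members of each of 30 lists (the 2 of smallest p in lists without a call), called genes of opposite sign with rosiglitazone, and a fixed set, of which part is given; others are marked. The comparison, lists and genes were chosen with earlier results of these data known. Promoters are RefSeq sequences. The fit was tested on simulated data.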

Additional observations from a re-analysis of the deposited data

Results flagged for a closer look

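For 42 of the 146 features called without ligand, the receptor difference changed between rosiglitazone and DMSO by limma's test of that change (adjusted p under 0.05). The values that follow are the log2 receptor difference with rosiglitazone minus that in DMSO. Among genes lower with E157D in DMSO the change was -3.57 for S100a1, -3.48 for G0s2, -2.20 for Aqp7, -1.94 for Adipoq, -1.74 for Tpsab1, -1.71 for Treml1, -1.52 for Krt14, -0.99 for Lpl, -0.84 for Col18a1 and -0.72 for Slc25a1. G0s2, Aqp7, Adipoq, Tpsab1 and Krt14 were undetected on all E157D DMSO arrays, so their DMSO differences are lower bounds and the size of their change is not known. It was 0.79 for Cyp2c70 and 1.25 for Itgad, both closer to 0, and 2.42 for Prg2 and 2.16 for Ccl9, which changed sign. Among genes higher with E157D in DMSO it was 1.81 for Bglap2, 1.80 for Sncg, 1.36 for Bglap, 1.33 for Ramp2, 1.15 for Lmcd1, 0.89 for Tnc and 0.79 for Myh10. For Neu3 it was -1.09 and for Tpd52l1 -0.72. Lmcd1, Bglap, Neu3, Tpd52l1 and ILMN_1233122 were undetected on all wild-type DMSO arrays, Bglap2 on all wild-type rosiglitazone arrays and Prg2 on all E157D DMSO arrays, so the sizes given for them are also limited by the floor. The unnamed probes ILMN_1220829, ILMN_1233122 and ILMN_2835423 changed by 1.41, 1.75 and -1.73, and Egln3, not called in DMSO, by -1.63. Groups of 3 arrays were not tested for outlying samples.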

How the results depend on the processing

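The 146 calls became 227 with an offset of 50, 229 with the authors' values, 233 with a mean-variance trend and robust prior, 240 with array weights and 88 with a fit to the 6 DMSO arrays alone. Of these, 141, 122, 129, 146 and 77 were among the 146. Calls higher with E157D numbered 85 without background correction, 87 with an offset of 50, 86 with array weights and 27 with 6 arrays, and calls lower 140, 159, 153 and 154 with offset 50, the authors' values, trend and weights. Calls shared in direction with rosiglitazone numbered 188 without background correction, 185, 199, 202, 188 and 78 with offset 50, the authors' values, trend, weights and 6 arrays. Changes between treatments (310) numbered 194 with median scaling, 657 without background correction, 678 with the authors' values and 611 with trend. Called list members (34 genes) numbered 53 with the authors' values, 53 with trend and 22 with 6 arrays. Same-numbered arrays of the 2 DMSO groups deviated together at 0.152, 0.045 and 0.189, not all above 0.1, so the numbers were not taken to pair them, although all 6 arrays correlated best with their own number. With the replicate block the counts were 233 calls, 92 higher, 141 lower, 203 shared, 471 changes and 57 list members, and Igf2 was called (adjusted p = 0.000591).

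Leaving out 1 array gave 77 to 116 calls, 22 to 45 higher and 55 to 71 lower, 1626 to 2285 rosiglitazone calls, 70 to 139 shared, 180 to 306 changes and 18 to 29 list members. All 71 called genes and probes named kept their direction under the alternatives that tested them, and 36 kept their call under every one. The uncalled Pdk4 turned to -0.040 with the authors' values and lay between -0.034 and 0.136 when 1 array was left out, below 0 without wild-type replicate 1 (-0.034), E157D replicate 1 (-0.012) or wild-type replicate 3 (-0.011). The count of features detected with 1 receptor was 77 at a detection p under 0.01, chosen after seeing the data, against 81. Probes near the detection floor limit the folds.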
